A study of Mus musculus with 50 samples.

Results

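The 10 genes described here are the plasma cell transcription factor genes Xbp1, Prdm1, Irf4 and Bhlha15, and the endoplasmic reticulum (ER) genes Hspa5, Creld2, Herpud1, Edem1, Ssr4 and Sec11c. They were chosen by name from the 19224 genes of a single-cell count matrix, for their known roles in antibody secretion and in the response of cells to unfolded protein in the ER, and all 10 were in it. Their levels are described across Jchain-high cells, B-lineage cells, cells with markers of another blood lineage, and Procr+ cells. Jchain codes for the chain that joins IgM and IgA into polymers, and Procr codes for CD201, a surface protein of mouse haematopoietic stem cells.

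The cells came from mice in which a single haematopoietic stem cell of a β-actin-GFP transgenic B6-Ly5.2 donor had been transplanted, together with unsorted competitor marrow of B6-Ly5.2 mice, into lethally irradiated B6-Ly5.2 recipients. All groups shared that treatment, and of the 50 samples 10 were taken 1 month after it, 26 after 4 months and 14 after 12 months. Marrow was the only tissue of 35 samples, and spleen was taken with it in 15. Cells were enriched for c-Kit, stained for CD201, CD150, CD48, Sca-1, c-Kit and a lineage cocktail (B220, Gr-1 and TER-119), and sorted singly by surface markers or GFP, so the share of each cell type below can be set by the sort. None of the 4271 cell names used holds a sample title (0 names), so cells could not be tied to a month, a tissue, donor or competitor origin, and all cells were treated as 1 pooled sample with no test.

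Plasma cells are the antibody-secreting end stage of the B lineage. When unfolded protein builds up in the ER, the sensor IRE1 (gene Ern1) splices the Xbp1 mRNA, and the protein made from the spliced form induces genes for protein import, folding and degradation in the ER. Prdm1 (Blimp-1) and Irf4 turn B cells into plasma cells, and Bhlha15 (Mist1) supports the architecture of secretory cells. The counts come from the 3′ ends of transcripts and do not separate spliced from unspliced Xbp1.

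The ER stress response element, to which ATF6 and XBP1 bind together with NF-Y, was searched as CCAAT and CCACG with 9 bases of any kind between them. Its shorter relative, ERSE-II, was searched as ATTGG and CCACG with 1 base of any kind between them. The 250 bases before each RefSeq start site were searched on both strands in the RefSeq promoter table of GRCm38.p6, in which 9 of the 10 genes matched by symbol, all but Sec11c. RefSeq and the GENCODE M21 gene models whose coordinates are given below do not always start at the same base: the window of Prdm1 lies inside its GENCODE model, and those of Hspa5 and Irf4 lie partly inside. The first motif was in the promoters of Hspa5 and Creld2 and in 37 of 32851 promoters of the table (0.113%). The second was in that of Herpud1 and in 10 of 32851 (0.03%). These 3 sites are shown because no other window of the 9 held either motif. The capitals mark the fixed letters of each motif. They lie at chr2:34772020-34772048 (forward strand), chr15:88819515-88819543 (reverse strand) and chr8:94386372-94386392 (forward strand), with 5 flanking bases on either side.
Hspa5: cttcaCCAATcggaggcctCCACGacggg
Creld2: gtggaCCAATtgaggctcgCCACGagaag
Herpud1: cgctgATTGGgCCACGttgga

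The whole windows of Creld2 (chr15:88819396-88819645) and Herpud1 (chr8:94386179-94386428) follow on the forward strand, which is the strand of both genes, to show where the motif sits before the RefSeq start site. Counted from that start, the motif lies at bases -126 to -108 in Creld2, where it reads on the reverse strand, at -52 to -42 in Herpud1 and at -65 to -47 in Hspa5, where the site is inside the GENCODE model.
Creld2: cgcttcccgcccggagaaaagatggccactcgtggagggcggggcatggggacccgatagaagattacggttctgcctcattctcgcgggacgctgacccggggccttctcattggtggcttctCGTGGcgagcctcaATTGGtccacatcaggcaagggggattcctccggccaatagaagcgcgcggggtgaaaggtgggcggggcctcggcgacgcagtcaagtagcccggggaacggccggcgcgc
Herpud1: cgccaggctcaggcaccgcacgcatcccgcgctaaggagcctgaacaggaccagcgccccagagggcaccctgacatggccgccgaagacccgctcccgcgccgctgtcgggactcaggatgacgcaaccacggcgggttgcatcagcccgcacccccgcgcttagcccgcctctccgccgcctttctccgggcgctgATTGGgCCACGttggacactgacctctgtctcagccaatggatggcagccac

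The short core TGACGTGG, bound by XBP1, was in 0 of the 9 windows and in 0.563% of all promoters, and the E-box CAGCTG in 0 of the 9 and in 13.0% of all promoters. The 5 letters CCACG, which both longer motifs hold, were in 7 of the 9 windows and in 28.3% of all promoters. These matches describe letters in a window and show no binding.

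Of 4271 cells, 4185 passed the filters, 76 having fewer than 1000 genes and 10 more than 10% mitochondrial counts. Median depth was 122013 counts per kept cell, and the groups differed in it. The 127 Jchain-high cells (Jchain at 1000 CPM or more, where CPM is counts per 1000000 counts, 3.03% of kept cells, exact binomial 95% interval 2.54 to 3.60%) had a median of 52338 counts. The 51 B-lineage cells had 44888, the 472 other lineage-marker cells 97051 and the 2149 Procr+ cells 129542. Lineage cells carried at least 3 markers of a lineage at 100 CPM or more, and these and the Jchain-high cells had Procr under 50 CPM. The Procr+ cells had Procr at 50 CPM or more and passed no other gate. Kept cells that passed the Procr limit and another gate (499), tied between lineages (6) or passed no gate (881) were left out. Cell numbers recur between libraries (93 of 95 numbers), while no full cell name was duplicated (0).

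The Jchain gate is a range on a scale: 104 cells lay between 500 and 1000 CPM of Jchain and 67 between 1000 and 2000, 33 of them among the 127. The plasma cell label was therefore checked on 9 plasma cell markers that did not set the gate (Mzb1, Sdc1, Tnfrsf17, Slamf7, Tnfrsf13b, Derl3, Fkbp11, Txndc5 and Pou2af1). All 9 were counted in the 127 cells, and their summed level was 7551 CPM, against 1431 CPM in B-lineage cells and 197 CPM in Procr+ cells. Not every marker set the Jchain-high cells apart from B-lineage cells. Tnfrsf13b was at 251 and 229 CPM and Pou2af1 at 265 and 165 CPM in the 2 groups, while Sdc1 was at 311 and 7.82 CPM and Tnfrsf17 at 307 and 0 CPM. The label was not met by every cell: 85 of the 127 had at least 3 of the markers at 100 CPM or more, and 42 did not. The 85 are called plasma-marker cells below. This split was made after the data were seen, and the markers, which define it, say nothing further about the difference between the 85 and the 42 cells. Immunoglobulin constant and variable genes were not analysed here.

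All 10 genes were higher in Jchain-high than in Procr+ cells, by 5.99-fold for Hspa5 to 292-fold for Irf4. All 10 were at least 2-fold higher than in Procr+ cells (13.8% of the 7911 genes at 16 CPM or more in either group were, and 19.2% were at least 2-fold lower), than in B-lineage cells (22.4% higher, 16.4% lower) and than in other lineage-marker cells (8.23% higher, 17.9% lower). Part of these counts follows from the 16 CPM minimum, since Prdm1, Irf4, Bhlha15 and Edem1 were under it in Procr+ cells and passed only through the Jchain-high cells. Xbp1, Herpud1, Creld2, Sec11c, Ssr4 and Hspa5 were at 16 CPM or more in Procr+ cells too. These 6 were all at least 2-fold higher in Jchain-high cells, with a median log2 ratio, on CPM plus 1, of 3.20. Of the 7005 genes at that level in Procr+ cells 6.42% were, with a median of -0.32. B-lineage cells had 8 of the 10 genes at 16 CPM or more, all but Prdm1 and Bhlha15, and these 8 were at least 2-fold higher in Jchain-high cells with a median of 2.75 (10.05% of 6266 genes). For other lineage-marker cells it was 7 of 7, with a median of 2.84 (5.07% of 7574 genes). This restriction was added after the data were seen.

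In the 85 plasma-marker cells alone the 10 genes were at least 2-fold higher than in Procr+ cells too (15.1% of all genes), 6 of them with 16 CPM or more in Procr+ cells. The same held against B-lineage cells (22.2% of all genes higher, 19.5% lower), other lineage-marker cells (9.1% higher, 23.2% lower), the 10 dendritic cells (30.7% higher, 27.2% lower) and the 42 Jchain-high cells without plasma markers (18.2% higher). In these comparisons 8, 7, 8 and 8 of the genes reached 16 CPM in the reference cells, and all of those were at least 2-fold higher. None of the 10 was lower in any comparison (0 of 10). Of all genes at 16 CPM or more in the reference cells, 10.55, 5.77, 10.94 and 8.56% were at least 2-fold higher in the same order. For Procr+ cells as reference it was 7.35%. The split used ER genes among its markers, so no comparison of the 85 cells is independent of it, least of all that with the 42 cells.

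**Figure D1:**
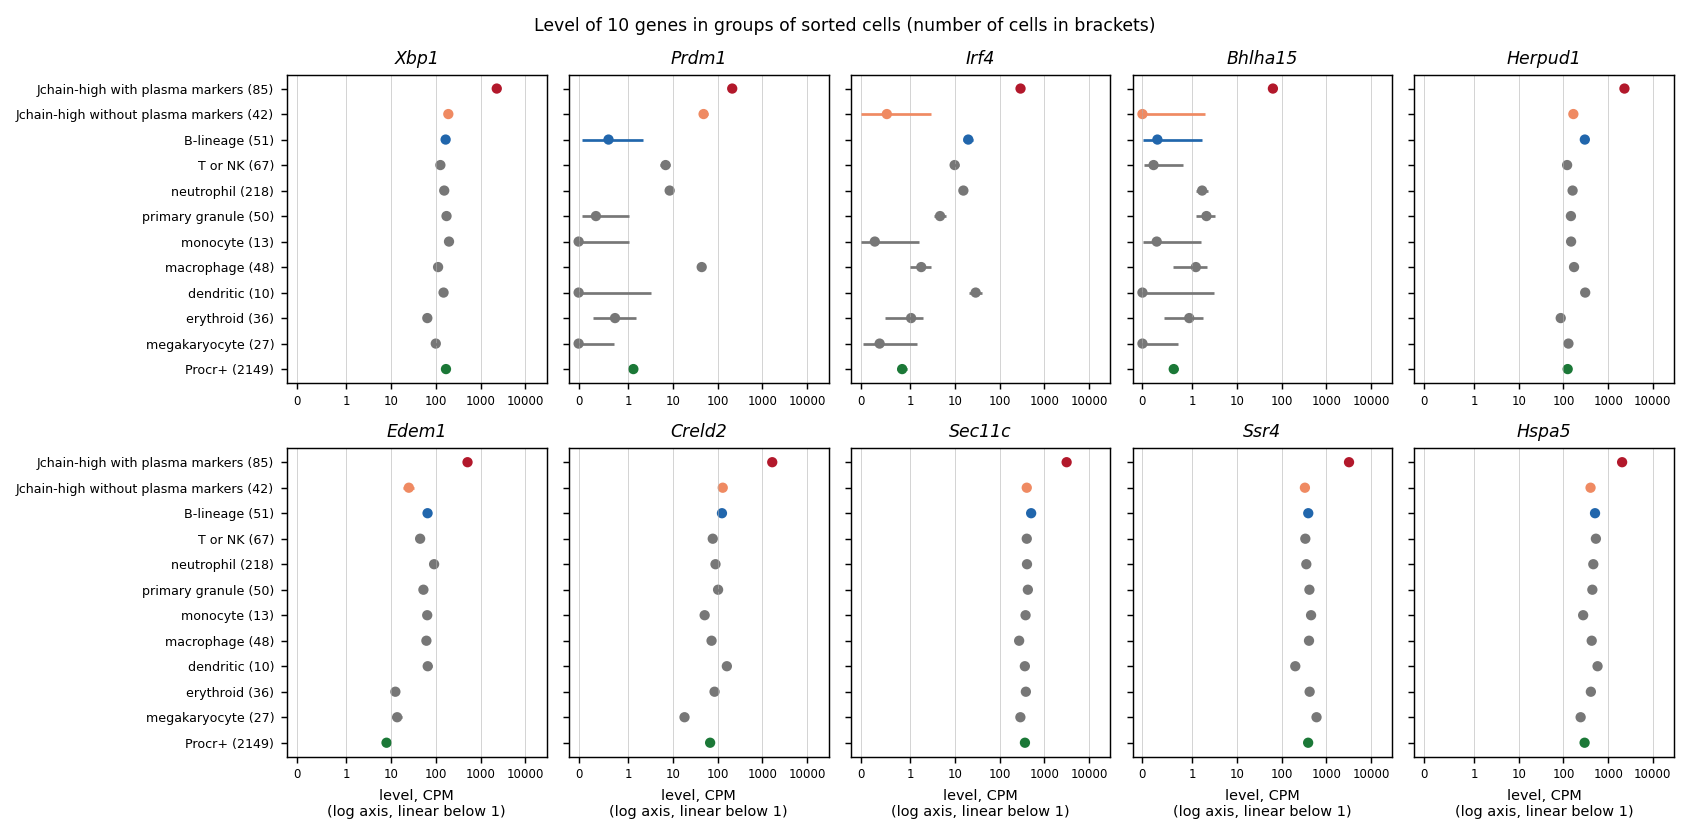
Level of each gene as summed CPM (log axis, linear below 1) in 12 groups of cells, with exact Poisson 95% intervals that cover counting error only. The plasma-marker cells hold the rightmost point of every panel, while the levels of Sec11c, Ssr4 and Hspa5 in the other groups lie close together and those of Prdm1, Irf4, Bhlha15 and Edem1 spread widely.

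Xbp1, the transcription factor gene of the IRE1 branch (chromosome 11, 5520659 to 5525893), was counted in every group. Its summed level was 2302.5 CPM in plasma-marker cells, 190 CPM in Jchain-high cells without plasma markers, 165.5 CPM in B-lineage cells, 133.5 CPM in other lineage-marker cells and 168.5 CPM in Procr+ cells. Single plasma-marker cells ran from 0 to 10372 CPM with a median of 2232, and single Procr+ cells from 0 to 3083 CPM with a median of 116. The 2 ranges overlapped, but 64 of the 85 plasma-marker cells lay above the 99th percentile of Procr+ cells (1002 CPM). The fold of plasma-marker over Procr+ cells was 13.7 (exact 95% interval 13.5 to 13.9). B-lineage cells stood at 0.982 times the Procr+ level (0.901 to 1.07), and erythroid cells had the lowest level of the lineages with at least 10 cells, 64.5 CPM.

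Prdm1, the repressor of the B cell program (chromosome 10, 44437177 to 44528501), was at 211 CPM in plasma-marker cells, 9.44 CPM in other lineage-marker cells, 1.30 CPM in Procr+ cells and 0.602 CPM in B-lineage cells, where 2 counts were seen. It was counted in 49 of 85 plasma-marker cells (57.6%), with a median of 20.9 and a highest value of 1341 CPM. In Procr+ cells, which have the greater depth, it was counted in 43 of 2149 (2.00%), with a highest value of 407 CPM. Cells thinned to 20000 counts gave 57.4% of 68 plasma-marker cells (17 shallower cells left out) and 1.22% of 2041 Procr+ cells (108 left out). Jchain-high cells had 142 times the Procr+ level (128 to 158), and 306 times the B-lineage level with a counting interval of 84.5 to 2526.5.

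Among the lineages, macrophage-marker cells had the highest Prdm1 level, 43.8 CPM (39.6 to 48.3), from 11 of 48 cells. Monocyte, dendritic and megakaryocyte cells had 0 counts, which allows up to 0.863, 2.56 and 0.576 CPM. In the Jchain-high cells without plasma markers Prdm1 was at 48.2 CPM, but 89 of its 91 counts came from 1 cell.

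Irf4, which B cells use at several stages and plasma cells need (chromosome 13, 30749226 to 30766976), differed most between Jchain-high and Procr+ cells. Its level was 293 CPM in plasma-marker cells, 19.9 CPM in B-lineage cells, 8.19 CPM in other lineage-marker cells and 0.838 CPM in Procr+ cells. It was counted in 59 of 85 plasma-marker cells (69.4%), 10 of 51 B-lineage cells (19.6%) and 41 of 2149 Procr+ cells (1.91%). After thinning as above the shares were 67.6% of plasma-marker and 0.637% of Procr+ cells. Single plasma-marker cells reached 2536 CPM with a median of 80.3, and 20 of them exceeded the highest Procr+ cell (326 CPM). Of the 270 counts in Procr+ cells, 131 came from 1 cell. In the 42 Jchain-high cells without plasma markers 1 count of Irf4 was found.

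Bhlha15, the secretory architecture factor (chromosome 5, 144190286 to 144194441), was at 64.0 CPM in plasma-marker cells and at 1.16 CPM, 0.630 CPM and 0.301 CPM in other lineage-marker, Procr+ and B-lineage cells. It was counted in 43 of 85 plasma-marker cells (50.6%) and 33 of 2149 Procr+ cells (1.54%), and after thinning in 39.7% and 0.833%. The highest plasma-marker cell had 994 CPM and held 36.2% of the group's counts. Jchain-high cells without plasma markers had 0 counts in 42 cells, which allows up to 1.59 CPM. Jchain-high cells had 84.9 times the Procr+ level and 178 times the B-lineage level, where 1 count left an interval of 31.8 to 7036.5.

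Hspa5, the ER chaperone BiP that binds unfolded proteins and holds the stress sensors inactive (chromosome 2, 34771970 to 34777547), was abundant in all groups and differed least. Its level was 2048 CPM in plasma-marker cells, 507.5 CPM in B-lineage cells, 436 CPM in other lineage-marker cells and 297 CPM in Procr+ cells. Plasma-marker cells ran from 0 to 15676 CPM with a median of 1592, and Procr+ cells from 0 to 2961 CPM with a median of 221. The groups overlapped widely: 47 of 85 plasma-marker cells lay above the 99th percentile of Procr+ cells (1312 CPM). Folds of Jchain-high over the other groups were 5.99, 3.50 and 4.08 for Procr+, B-lineage and other lineage-marker cells.

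Creld2, an ER-resident protein of the folding response (chromosome 15, 88819646 to 88826683), was at 1654 CPM in plasma-marker cells, 124 CPM in B-lineage cells, 80.4 CPM in other lineage-marker cells and 67.5 CPM in Procr+ cells. The median single cell had 1564 CPM among plasma-marker cells and 2.43 CPM among Procr+ cells, and 43 of the 85 exceeded the highest Procr+ cell (1497 CPM). In megakaryocyte cells it was at 18.1 CPM, the lowest of the lineages with at least 10 cells. Jchain-high cells had 20.8 times the Procr+ level and 11.3 times the B-lineage level, larger ratios than those of Hspa5.

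Herpud1, which organises the ubiquitin ligase complex of ER-associated degradation (chromosome 8, 94386438 to 94395377), was at 2308 CPM in plasma-marker cells, 300.2 CPM in B-lineage cells, 144 CPM in other lineage-marker cells and 124 CPM in Procr+ cells. The median plasma-marker cell had 2101 CPM and the median Procr+ cell 84.6 CPM. Of the plasma-marker cells, 48 of 85 lay above the highest Procr+ cell (1668 CPM). Dendritic cells, of which there were 10, had 306 CPM (275 to 339), an interval that holds the B-lineage level.

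Edem1, which delivers misfolded glycoproteins to degradation (chromosome 6, 108828641 to 108859356), was the ER gene that differed most between lineage cells and Procr+ cells. Its level was 511 CPM in plasma-marker cells, 65.3 CPM in B-lineage cells, 59.3 CPM in other lineage-marker cells and 7.89 CPM in Procr+ cells. Neutrophil cells had 91.5 CPM (87.8 to 95.2), dendritic cells 65.8, monocyte cells 64.1, macrophage cells 61.5, primary granule cells 52.7 and T or NK cells 44.5 CPM, while megakaryocyte and erythroid cells had 13.6 and 12.5 CPM. It was counted in 14.1% of Procr+ cells and 87.1% of plasma-marker cells, and after thinning in 6.12% and 91.2%. Plasma-marker cells ran from 0 to 3040 CPM with a median of 364, and the highest Procr+ cell had 882 CPM.

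Ssr4, a subunit of the translocon-associated protein complex that helps nascent chains enter the ER (chromosome X, 73787028 to 73790830), was at 3224 CPM in plasma-marker cells and within 333 to 399 CPM in Jchain-high cells without plasma markers, B-lineage, other lineage-marker and Procr+ cells. Among the lineages it was highest in megakaryocyte cells, 605 CPM (584 to 626), and lowest in dendritic cells, 203 CPM. Of the plasma-marker cells 53 of 85 exceeded the highest Procr+ cell (2185.5 CPM). Sec11c, a catalytic subunit of the signal peptidase, was at 3144 CPM in plasma-marker cells, 506 CPM in B-lineage cells, 380 CPM in other lineage-marker cells and 367.5 CPM in Procr+ cells. For Sec11c, 59 of 85 plasma-marker cells exceeded the highest Procr+ cell (1952 CPM), the largest number for the 10 genes. Its level in the other lineages with at least 10 cells ran only from 273 CPM in macrophage cells to 427 CPM in primary granule cells.

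**Figure D2:**
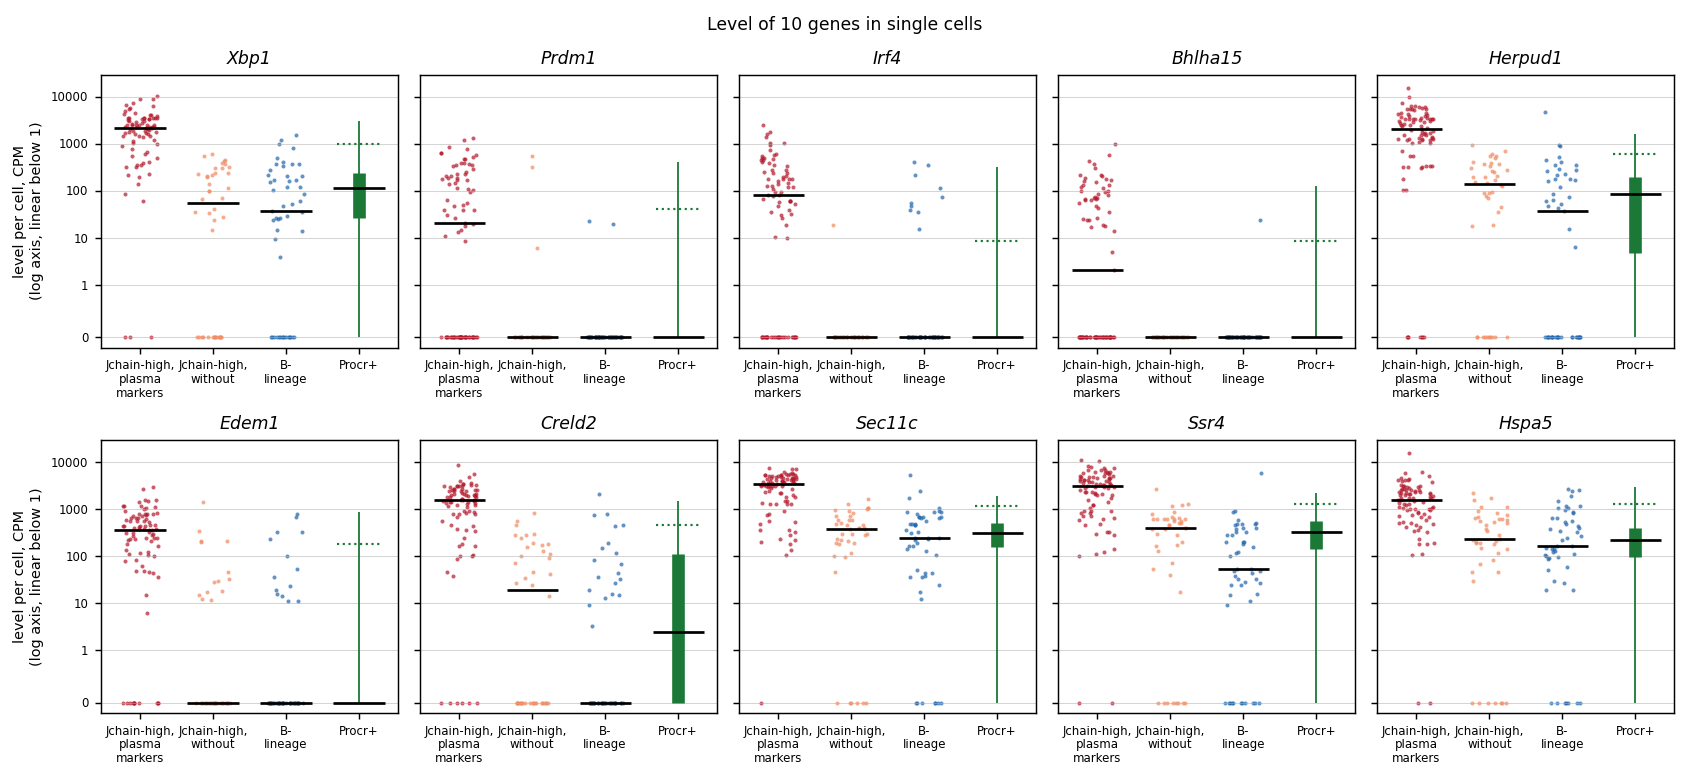
Level per cell in CPM (log axis, linear below 1) for plasma-marker cells, other Jchain-high cells and B-lineage cells, with a black bar at each median. The green line spans all Procr+ cells, its thick part the middle 50% and the dotted line their 99th percentile; most plasma-marker cells lie above that line for Sec11c, Herpud1 and Creld2.

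B-lineage cells differed from Procr+ cells in 3 of the 8 genes that reached 16 CPM in either group, all higher (14.4% of all genes were at least 2-fold higher). These were Irf4 (23.7-fold), Edem1 (8.27-fold) and Herpud1 (2.42-fold), and of these Irf4 and Edem1 passed the 16 CPM minimum only through the B-lineage cells. Creld2 stood at 1.84, Hspa5 at 1.71, Sec11c at 1.38, Ssr4 at 1.01 and Xbp1 at 0.982 times the Procr+ level. The Herpud1 call was lost with equal weight per cell (log2 ratio 0.82, from 1.27), with cells thinned to 20000 counts (0.86) and with the Jchain gate at 100 CPM (0.58), each of which left 2 of 8 genes. Single cells weighed heavily: 1 of the 51 cells held 43.9% of the Herpud1 counts, 45.3% of the Creld2 counts and 41.6% of the Ssr4 counts. One library held 25 of the 51 cells, and without it 4 genes were at least 2-fold higher, Creld2 being the fourth, with log2 ratios of 4.20 for Irf4, 3.32 for Edem1, 1.86 for Herpud1 and 1.58 for Creld2. Irf4 then stood at a log2 ratio of 2.89 for Jchain-high over B-lineage cells, where it was 3.56 with that library.

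Other lineage-marker cells differed from Procr+ cells by at least 2-fold in 1 of 7 genes compared, Edem1 at 7.51-fold (13.9% of all genes were at least 2-fold higher and 5.68% at least 2-fold lower). Prdm1, Irf4 and Bhlha15 were below 16 CPM in both groups and were not compared. Edem1 passed the minimum only through the lineage cells. The other 6 genes lay between 0.792 times (Xbp1) and 1.47 times (Hspa5) the Procr+ level.

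Neutrophil RNA was present in the Jchain-high cells beside these results. All 9 neutrophil markers were counted in them, and their summed level was 7367 CPM, against 99.5 CPM in Procr+ cells. It ran from 0 to 152748 CPM over cells with a median of 90.8, so a minority of cells held most of it. In the 84 Jchain-high cells with fewer than 3 neutrophil markers at 100 CPM, a selection added after the data were seen, all 10 genes were again at least 2-fold higher than in each of the other groups. As above, some of the 10 were under 16 CPM in those groups, and the share of all genes was not computed for the 84 cells. The log2 ratio over Procr+ cells was then 6.18 for Irf4, where it was 7.06 in all 127 cells, and 5.90 against 6.33 for Prdm1. For Herpud1 it was 3.98 against 3.97.

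Within the plasma-marker cells the 3 transcription factor genes Prdm1, Irf4 and Bhlha15 were counted in different combinations. All 3 were counted in 24 cells, Prdm1 with Irf4 in 17, Irf4 with Bhlha15 in 8 and Prdm1 with Bhlha15 in 6. Irf4 alone was counted in 10, Bhlha15 alone in 5 and Prdm1 alone in 2. None of the 3 was counted in 13 cells, whose median depth was 9697 counts against 94645 in the cells with all 3, so a missing count in these cells was not distinguishable from shallow sequencing. Xbp1 was counted in 82 of the 85.

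Summed levels of the ER genes differed by less between plasma-marker cells with and without a Prdm1 count than between plasma-marker and Procr+ cells. The 49 cells with Prdm1 counts had 2054 CPM of Hspa5 and 1628 CPM of Creld2, and the 36 cells without had 2026 and 1748.5 CPM. Herpud1 was at 2059 CPM with Prdm1 and 3217 CPM without, and Xbp1 at 2139 and 2899 CPM. Median single cells ordered the other way, with 2555 CPM of Herpud1 in cells with Prdm1 and 1608 CPM in cells without, so the order depended on how the cells were weighted. Median depths of the 2 sets were 89910 and 27374 counts.

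A median of 9 of the 10 genes was counted in a plasma-marker cell, and 5 in a Procr+ cell. In 68 of 85 plasma-marker cells (80.0%) at least 5 of the 10 genes lay above the 99th percentile of Procr+ cells. That held for 1 of 51 B-lineage cells, 1 of 472 other lineage-marker cells and 0 of 42 Jchain-high cells without plasma markers, which allows up to 7.14%. No Procr+ cell reached it (0 of 2149), but the limit was taken from these same cells. By its definition 22 of them (1.02%) lie above it for each gene, so their count is largely set by the limit. In 9 plasma-marker cells none of the 10 genes was above that percentile.

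The ER genes varied together between plasma-marker cells, Edem1 being given apart from the others. The 10 pairs among Herpud1, Creld2, Sec11c, Ssr4 and Hspa5 had Spearman's rho from 0.51 to 0.76 over the 85 cells, highest for Creld2 with Hspa5 (0.76) and Sec11c with Ssr4 (0.75). Edem1 had rho from 0.40 (Hspa5) to 0.54 (Ssr4) with these genes. The 3 pairs among Prdm1, Irf4 and Bhlha15 had rho from -0.00 to 0.34, and over all 45 pairs the median was 0.38. Ssr4 had rho of 0.67 with Creld2, 0.62 with Hspa5 and 0.56 with Herpud1. Xbp1 was nearest to Sec11c (0.55) and Edem1 (0.47). In 1328 Procr+ cells with at least 100000 counts none of the 45 pairs exceeded 0.18. Levels were lower in Procr+ cells (median Creld2 2.43 CPM over all of them), and the part of counting noise in the low rho was not tested. Pairs of genes outside the 10 and Jchain were not computed. These values describe cells that share libraries and depth: rho with total counts ran from 0.09 (Bhlha15) to 0.43 (Prdm1) in plasma-marker cells. With Jchain, rho was 0.61 for Herpud1, 0.45 for Xbp1, 0.06 for Prdm1 and 0.05 for Irf4.

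**Figure D3:**
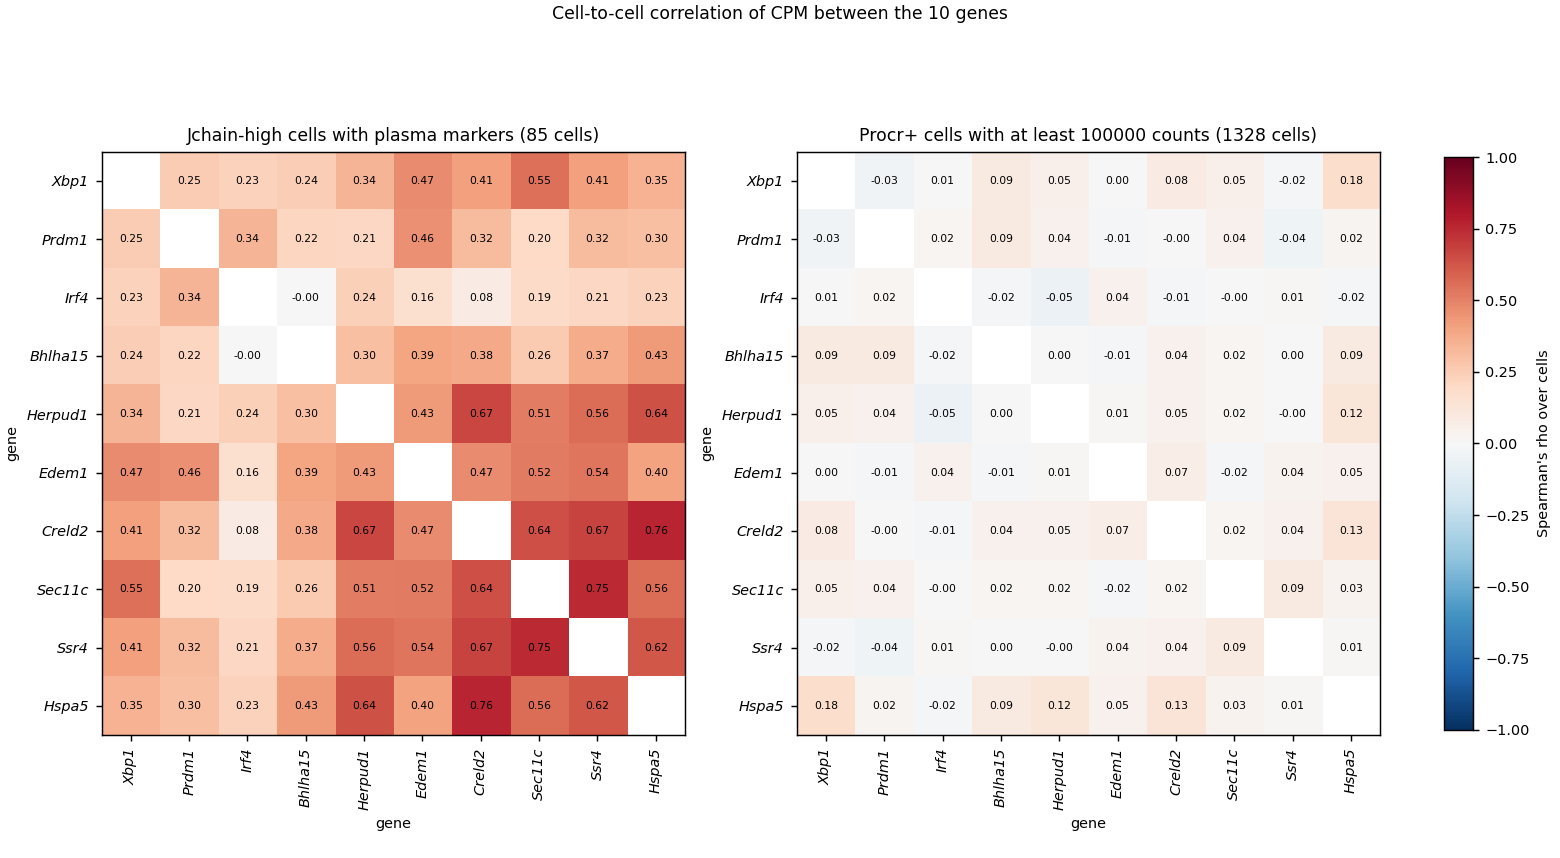
Spearman's rho between each pair of the 10 genes over 85 plasma-marker cells and over 1328 Procr+ cells with at least 100000 counts. In the first panel the pairs of Herpud1, Creld2, Sec11c, Ssr4 and Hspa5 reach 0.51 to 0.76, and no pair of the second panel exceeds 0.18.

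The difference between plasma-marker and Procr+ cells was also present within libraries. Where a library held 3 or more cells of each kind, which was so in 9 libraries, 8 of the genes were higher in plasma-marker cells in 9 of 9, with ranges that did not overlap. The share of all genes that did so was not computed. In the pooled comparison of these 2 groups, 15.1% of all genes compared were at least 2-fold higher in plasma-marker cells and 24.1% at least 2-fold lower. Xbp1 ran from 1480 to 4553 CPM in plasma-marker cells and from 111 to 279 CPM in Procr+ cells of the same libraries. Edem1 ran from 196 to 670 CPM and from 0.925 to 34.8 CPM. Hspa5 and Bhlha15 were higher in 8 of 9. In the library that went the other way for Hspa5 it was at 477 CPM in 6 plasma-marker cells and 804 CPM in 20 Procr+ cells, and in the one for Bhlha15 the values were 0.559 and 1.28 CPM. Libraries are not replicates of a condition, so these counts carry no test.

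**Figure D4:**
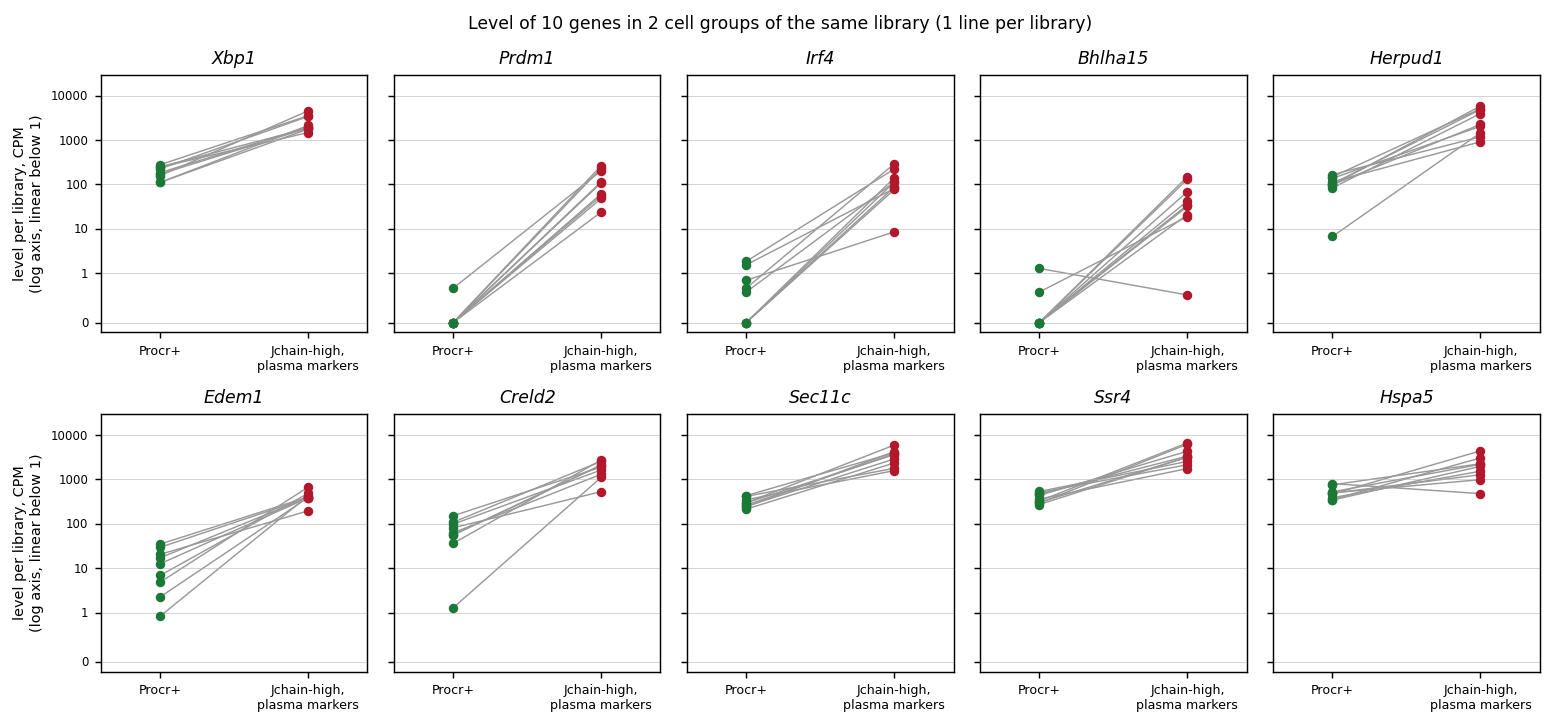
Level of each gene (CPM, log axis, linear below 1) in Procr+ and plasma-marker cells of 9 libraries, each library a line. Every line climbs except 1 for Bhlha15 and 1 for Hspa5.

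In the 42 Jchain-high cells without plasma markers, 2 of the 8 genes compared were at least 2-fold higher than in Procr+ cells (12.9% of all genes), Edem1 at 3.15-fold and Prdm1 through the single cell given above. Both passed the 16 CPM minimum only through these cells. Of the other 6, Creld2 stood at 1.91 times the Procr+ level (1.68 to 2.17), Hspa5 at 1.36, Herpud1 at 1.34, Xbp1 at 1.13, Sec11c at 1.10 and Ssr4 at 0.846 times. These cells also carried RNA of stem cell genes: Hlf, a stem cell transcription factor gene, was at 165 CPM, against 9.46 CPM in plasma-marker cells and 219 CPM in Procr+ cells. Their median depth was 17627 counts. For the 71 cells that passed both the Jchain and the Procr gate, the sums of Xbp1 (876 CPM) and Irf4 (44.9 CPM) lay between those of the 42 and of the plasma-marker cells. Their median cell had only 312 CPM of Xbp1 and 0 CPM of Irf4, which was counted in 19 of the 71. Prdm1 was at 11.6 CPM, below its sum in the 42 cells.

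Of the plasma-marker cells, 15 had at least 3 of 8 cycling markers at 100 CPM, and these had lower levels of all 10 genes than the 70 others. The share of all genes that were lower in the cycling cells was not computed. Xbp1 was at 947 CPM in cycling and 2880 CPM in other cells, Irf4 at 53.2 and 395 CPM and Herpud1 at 735 and 2978 CPM. Hspa5 differed less, with 1357 and 2342 CPM. Jchain itself was at 9259 and 32548 CPM, and median depth was 23016 and 64528 counts. The part of Jchain level and depth in this difference was not tested.

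Across 57 libraries with at least 10 Procr+ cells, the ER genes other than Edem1 were counted in those cells of every library, and Edem1 was at 0 in 4. Ssr4 ran from 189.5 to 551 CPM with a median of 386, Sec11c from 205 to 630 with a median of 358 and Xbp1 from 81.5 to 342 with a median of 160. Hspa5 reached 965 CPM in one library, with a median of 299. Prdm1 was at 0 in 35 of the 57 libraries, Irf4 in 36 and Bhlha15 in 38.

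Jchain RNA was found in Procr+ cells of libraries that held Jchain-high cells. In 15 libraries with at least 5 cells over the Jchain gate, Procr+ cells had 193.5 CPM of Jchain and 7.03 CPM of Mzb1, against 1.97 and 0.144 CPM in 41 libraries with none. In the same order Irf4 was at 5.58 and 0.365 CPM, Edem1 at 11.8 and 7.14 CPM, Hspa5 at 402 and 288 CPM and Xbp1 at 178 and 169 CPM. Prdm1 was lower, at 0.306 and 1.43 CPM. Only Irf4 among the 10 genes differed by more than 5-fold between the library sets, and 131 of its 146 counts in the 15 libraries came from a single cell. Against Procr+ cells of the 41 libraries alone all 10 genes were again at least 2-fold higher in Jchain-high cells. Prdm1, Irf4, Bhlha15 (0.668 CPM) and Edem1 were under 16 CPM in those Procr+ cells and passed the minimum only through the Jchain-high cells. The share of all genes in that comparison was not computed.

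Within the Procr+ gate, 103 cycling cells had 121 CPM of Creld2 and the others 63.1 CPM (1.92-fold), and Creld2 was higher in cycling cells in 4 of the 4 libraries with enough of both. Xbp1 went the other way, with 113 and 173 CPM, higher in cycling cells in 0 of 4. Edem1 was 2.21-fold higher in the sum, but higher in 1 of 4 libraries. Procr+ cells with counts of both Cd34 and Flt3, genes of multipotent progenitors, had 11.2 CPM of Edem1 against 4.26 CPM in cells with neither, higher in 14 of 20 libraries. Xbp1 was at 155 and 221 CPM in those cells, higher in 9 of 20. Median depth was 212407 counts in cycling and 128361 in other Procr+ cells. It was 150308 in cells with both Cd34 and Flt3 counted and 81974 in cells with neither. The part of depth in these differences was not tested.

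Other genes of the secretory pathway were also higher in Jchain-high than in Procr+ cells. The counts below are over genes at 16 CPM or more in Procr+ cells (6.42% of all such genes were at least 2-fold higher, 21.6% lower). Of 16 ER chaperone and folding genes, 13 were at least 2-fold higher and 0 lower, with a median log2 ratio of 2.73 against -0.32 over all genes. The largest ratios of the list, for genes at any level in Procr+ cells, were those of Mzb1, Txndc5 and Sdf2l1, at 10.40, 5.32 and 3.87. Mzb1 and Txndc5 are also among the plasma cell markers used for the split, not for the gate. Sdf2l1, a partner of BiP, was at 610.1 CPM in Jchain-high and 40.7 CPM in Procr+ cells. The smallest ratio was that of the disulfide isomerase gene Pdia3, 462 and 326 CPM.

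Of 12 degradation genes 9 were higher and 0 lower (median 1.80). The largest ratios of that list were those of Derl3 (795 and 0.745 CPM), Sel1l (832 and 48.4 CPM) and Ube2j1 (382 and 37.6 CPM). Derl3 codes for a channel component and is also one of the plasma cell markers. Sel1l codes for the scaffold of the HRD1 ligase. Of 17 translocation and signal peptide genes 12 were higher and 0 lower (median 1.63). The signal peptidase subunits Spcs3 (log2 ratio 2.96) and Spcs1 (2.31) led, with Srprb (2.05), while Sec11a, the paralogue of Sec11c, stood at -0.08, with 210 CPM in Jchain-high and 222 CPM in Procr+ cells.

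Of 12 N-glycosylation genes 8 were higher and 0 lower (median 1.31), with the oligosaccharyltransferase genes Magt1, Stt3b and Krtcap2 at 1.89, 1.73 and 1.58. Tusc3, which stands in for Magt1 in that complex, was at -0.90. Of 19 ER to Golgi transport genes 12 were higher and 0 lower (median 1.19). Kdelr3, a receptor that returns ER proteins from the Golgi, was at 19.0 CPM in Jchain-high and 0.0466 CPM in Procr+ cells, and the coat genes Sec24d and Sec24a had log2 ratios of 2.55 and 2.51.

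Of the upstream sensor and stress genes, 1 of 8 was at least 2-fold higher and 1 lower, with a median log2 ratio of 0.26, the lowest of these 6 lists. The sensor genes Eif2ak3 (PERK, 21.2 and 2.52 CPM) and Atf6 (81.6 and 12.4 CPM) and the related Atf6b (76.5 and 27.4 CPM) had the largest ratios, of which only Atf6b was at 16 CPM or more in Procr+ cells. Trib3, a target of the PERK branch, was the lower one, at 12.6 CPM in Jchain-high and 34.7 CPM in Procr+ cells. Ppp1r15a, which reverses the PERK signal, stood at 266 and 281 CPM. Against B-lineage cells, over genes at 16 CPM or more there (10.05% of all such genes higher), 13 of 15 folding, 12 of 15 degradation, 11 of 16 translocation, 10 of 12 N-glycosylation and 12 of 17 transport genes were at least 2-fold higher. For the sensor list it was 3 of 7, and no gene of these 6 lists was lower (0).

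The B cell transcription factor genes were all under 16 CPM in Procr+ cells (0 of 10 at that level), so that list gave no count and only values are given. Ebf1 and Pax5, of which Prdm1 represses Pax5, are themselves markers of the B-lineage gate. Ebf1 was at 49.0 CPM in Jchain-high, 601 in B-lineage and 0.317 CPM in Procr+ cells, and Pax5 at 19.1, 384 and 0.109 CPM. Outside the gate markers, Irf8, a relative of Irf4, was at 129, 440.1 and 9.26 CPM in the same order, and Id3 at 27.3, 220.2 and 3.21 CPM. Foxo1 did not follow that order, with 48.8, 45.4 and 15.7 CPM.

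**Figure D5:**
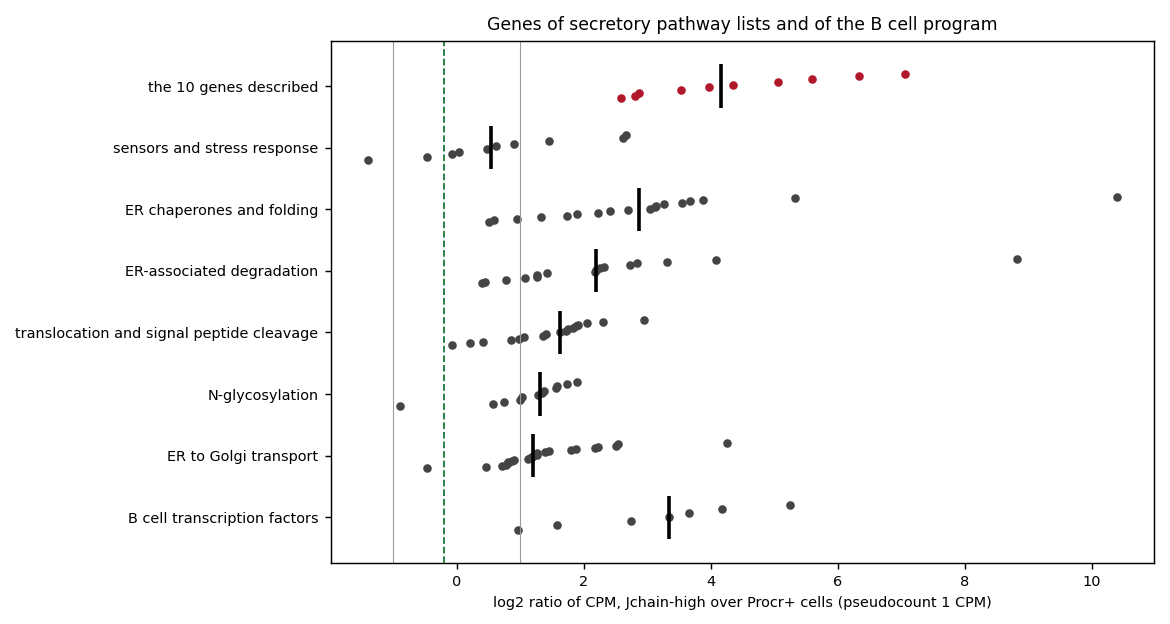
Log2 ratio of summed CPM (plus 1), Jchain-high over Procr+ cells, for the 10 genes and the genes of 7 lists that reached 16 CPM in either group, with a black bar at each median. The dashed green line is the median of all genes compared, -0.20, and the grey lines mark 2-fold; the folding and degradation lists lie to the right of the sensor list.

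The genes whose levels followed each of the 10 most closely over the 11 groups with at least 10 cells were named by Pearson's r on log2 CPM plus 1, among 10247 genes. They were Txndc5, Hsp90b1 and Selenos for Herpud1 (0.96, 0.95 and 0.94), Manf, Creld2 and Irf4 for Hspa5 (0.96, 0.96 and 0.93) and Hspa5, Manf and Slc35b1 for Creld2 (0.96, 0.95 and 0.91). For Ssr4 they were Spcs1, Derl1 and Ufm1 (0.97, 0.94 and 0.93), and for Sec11c H2-M10.1, Cacna1h and Rnase2a (0.97, 0.96 and 0.96). Xbp1 was followed by H13, the signal peptide peptidase gene, Fam162b and Oosp2 (0.97, 0.94 and 0.94), Bhlha15 by Tnfrsf17, Rab25 and Nuggc (0.98, 0.96 and 0.94) and Irf4 by Epcam, Cmah and Hspa5 (0.96, 0.94 and 0.93). The genes nearest to Prdm1 were Tspan15, Dhdds and Cflar (0.93, 0.91 and 0.89), and those nearest to Edem1 were Slpi, Cdh23 and Slamf7 (0.92, 0.91 and 0.88). The 11 groups share libraries, and Jchain-high cells are the extreme group for all 10 genes, so these values describe the groups and carry no test.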

How the data were processed

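The authors deposited raw counts for each gene in each cell, as whole numbers without normalization. The submitters' processing notes name HTSeq 0.9.1, HISAT2 2.1.0, Trimmomatic 0.36 and, as genome, GRCm38. The sources used here do not give whether reads or molecules were counted. Amplified copies are not independent molecules, so all intervals cover counting error only. Columns of 4271 cells from 67 libraries were used and 17 columns of a further library were not used here.

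Counts were summed over the cells of a group and divided by the group's total (CPM), with exact Poisson intervals. Ratios had exact conditional binomial intervals, shares exact binomial (Clopper-Pearson) ones, and a count of 0 allows 3 counts. Genes at 16 CPM or more in either group, and in a restriction added after the data were seen in the reference group, were compared and called at 2-fold on CPM plus 1. Cells are not replicates, so there is 1 pooled sample, with no p-value. Since cells were sorted singly, no doublets were called. Python 3.11.15, numpy 2.4.6, pandas 2.3.3, scipy 1.17.1 and matplotlib 3.10.9 were used, and the ratio and interval code was tested on simulated data. Positions came from GENCODE M21.

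The 10 genes, gates and lists were chosen with earlier results of these data known. Named genes are the 10, the 3 of each list with the largest log2 ratio of Jchain-high over Procr+ cells each way, of which a selection is printed, and for each of the 10 the 3 of highest Pearson's r. Alternatives varied the Jchain, marker, Procr and cell filters, the scaling, the pseudocount, the depth and the libraries.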

Additional observations from a re-analysis of the deposited data

How the results depend on the processing

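The number of genes at least 2-fold higher in Jchain-high cells was 10 of 10 against each of the 3 other groups under all alternatives other than the Jchain gate at 100 CPM and the restriction to the reference group below. With the Jchain gate at 100 CPM, which took in 429 cells, Bhlha15 fell under 16 CPM and was not compared. The count was then 9 of 9 against Procr+ cells and 8 of 9 against B-lineage and other lineage-marker cells, Hspa5 being under 2-fold in both (log2 ratios 0.62 and 0.99). Ratios over Procr+ cells were then 2.01 for Xbp1, 5.77 for Irf4 and 1.49 for Hspa5. Of the pathway lists, 1 of 9 (sensors), 7 of 16 (degradation), 1 of 17 (translocation), 2 of 12 (N-glycosylation) and 3 of 22 (transport) genes were higher. The sensor list also had 1 in the cells with few neutrophil markers. Restricted to genes at 16 CPM or more in the reference group, the counts were 6 of 6, 8 of 8 and 7 of 7 against Procr+, B-lineage and other lineage-marker cells, 1 of 6 for B-lineage over Procr+ cells and 0 of 6 for other lineage-marker over Procr+ cells. Otherwise the count for B-lineage over Procr+ cells ranged from 2 to 4 of 8, and that for other lineage-marker over Procr+ cells was 1. Of the single ratios recomputed, 361 stayed within their counting interval, 349 moved beyond it and none of the called ones changed sign. Median-of-ratios scaling raised the ratios of Jchain-high over Procr+ cells, that of Xbp1 from 3.53 to 3.69 and that of Hspa5 from 2.58 to 2.74.

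Depth limits the low genes: 3 counts correspond to 0.902 CPM in B-lineage cells and 0.00931 CPM in Procr+ cells. No paired analysis was possible because the replicate numbers in the labels are not tied to cells. Plasma-marker and Procr+ cells were instead set side by side within 9 libraries, with no test.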
